A study of Homo sapiens with 12 samples.

Results

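Presynaptic vesicle release genes encode the proteins that fill, dock, fuse and retrieve synaptic vesicles. The set held 33 genes, presynaptic proteins named by symbol with earlier results of these data known, and all 33 had a line in the series' gene table, which holds 19943 gene names. Of the 33, 16 (48.5%) appeared in at least 1 of the 5 tables that list the authors' changed genes, sites and introns, against 22.3% of all gene names. Because of how the set was chosen, that difference may come from the choice and is given as a description. The other 17 appeared in none of the 5, which does not show that they were unchanged, since the tables hold called changes and not every gene tested.

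A synaptic vesicle is loaded with transmitter by a vesicular transporter, brought to the active zone by scaffold proteins, and fused with the plasma membrane by SNARE proteins. Synaptotagmins couple that fusion to calcium. The vesicle membrane is then retrieved with the help of dynamin and clathrin partners. TDP-43, encoded by TARDBP, is a nuclear RNA-binding protein that prefers UG-rich RNA, represses unannotated exons and affects the choice of polyadenylation site.

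The neurons were of the WA01 line, an established line of human embryonic stem cells, in which NGN2 was overexpressed to drive a cortical neuron fate. One set of cultures received a scrambled shRNA (labelled shControl, genotype WT) and the other an shRNA against TDP-43 (labelled shTDP-43, TDP-43 knockdown), each for 7 days, and NGN2 induction was common to both. There were 12 libraries in 4 groups of 3, with scrambled and TDP-43 shRNA libraries for RNA-seq and for 3' end-seq, which reads the last bases of polyadenylated transcripts. The model is 1 cell line with a forced fate, and nothing in the labels states whether the 3 replicates of a group were separate cultures. Values per library were not used, so no spread between replicates, no level of any gene and no depth can be given, and each adjusted p below is the authors' own. The cell type tag of every sample reads as embryonic stem cells, and neither that nor the neuronal label was checked against marker levels. TARDBP itself was in none of the tables of called changes. Its values in the gene table were not read, so the extent of the knockdown was not checked here.

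Splicing was where most of these genes appeared. A splicing cluster is a group of introns that share splice sites, and the measure for each intron is the change in its share of the cluster, given here in percentage points. Of the 33 genes, 15 (45.5%) had at least 1 changed cluster, against 11.8% of all gene names, and they held 24 of the 2994 clusters and 183 introns. Only 2 of the 33 appeared among polyadenylation changes from 3' end-seq (9.47% of all gene names did), 2 among those from RNA-seq (4.19%) and 1 among cryptic polyadenylation sites (1.96%). The 15 genes with a changed cluster were long. Their median RefSeq span was 156509 nt, against 44565 nt for the 18 without one, 51897 nt for gene-table genes with a changed cluster and 23484 nt for those without. Longer genes tend to offer more junctions, and the part of gene length in the share of 45.5% was not tested.

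**Figure D1:**
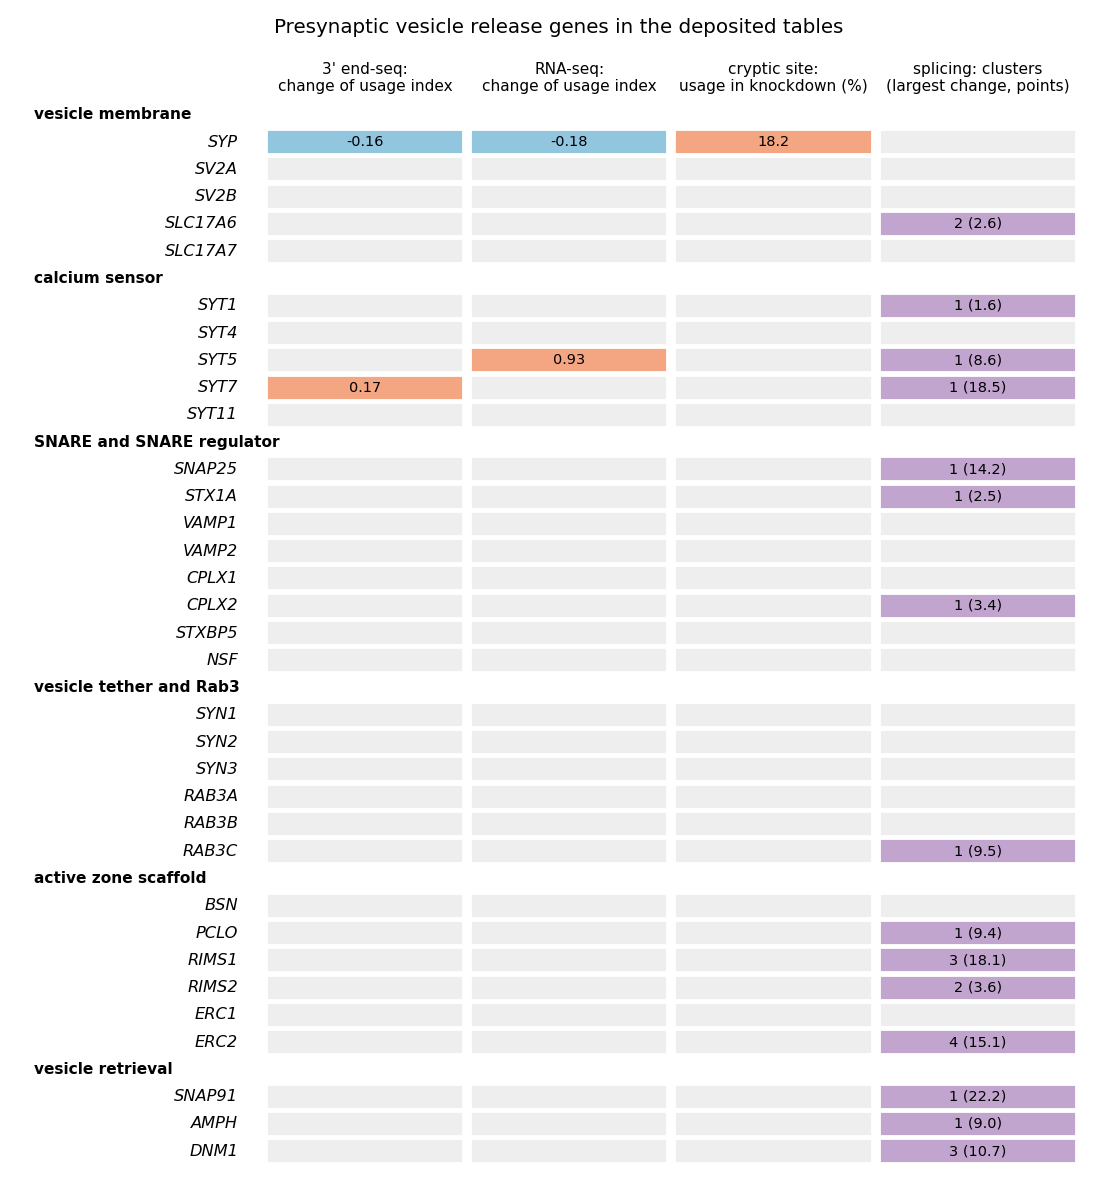
Rows are the 33 genes grouped by role and columns are the 4 kinds of change, with the change of the usage index for both polyadenylation assays (no unit), the knockdown usage of the cryptic site in percent, and the number of changed splicing clusters with the largest intron change in percentage points. Grey cells mark genes not listed; the splicing column is filled for 15 genes and the 3 other columns for 2, 2 and 1.

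The direction of intron changes is not stated in the deposited intron table. Positive values were read as a higher share in the knockdown because of STMN2, a known TDP-43 target. Its junction to an unannotated 3' splice site changed by 44.9 percentage points in the authors' deposited table and ended 226 nt before a polyadenylation site that the authors list at 0.0207% usage in control and 39.0% in the knockdown. In the same search, junctions to unannotated acceptors that ended up to 1000 nt before a premature cryptic site numbered 4, of which 3 were positive and 1 negative. The STMN2 junction lies within that distance, so this count is not taken as separate from it. The reading thus rests on few junctions. The adjusted p belongs to a whole cluster, the starting share of an intron is not given, and the changes within a cluster sum to about 0.

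The calcium sensors carried the strongest splicing call. SYT7, which encodes synaptotagmin-7, a high-affinity calcium sensor of slow release and vesicle replenishment, had the smallest adjusted p of all 2994 clusters at 6.41e-23 in the authors' deposited table. The cluster of 16 introns lies on the minus strand of chromosome 11 from 61533124 to 61551384 (hg38), beginning 49.6% of the way along the gene. By the size of its largest change it ranked 360. An unannotated exon whose ends lie 90 nt apart, from 61547530 to 61547620, gained use. Its upstream junction changed by 6.9 and its downstream junction by 12.0 percentage points in the authors' deposited table. The annotated junction that skips it, from 61547308 to 61551384, changed by -18.5 points in the authors' deposited table. A longer annotated junction from 61533124 to 61551384, which also passes over the exon, changed by -8.6 points in the authors' deposited table. Another unannotated 5' splice site at 61538144 gained 4.3 points in the authors' deposited table. Summed over its annotated introns, the SYT7 cluster changed by -29.7 points, the lowest sum of the 24 clusters.

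SYT7 also ended farther downstream. In 3' end-seq the gene was called longer, with a change of the polyadenylation usage index of 0.169 (adjusted p = 4.42e-296) in the authors' deposited table. The index has no stated scale and 1881 of the 2220 genes listed were longer (84.7%). The use moved 1593 nt, from a site at 61515313 to one at 61513720 on chromosome 11, which lie 1599 nt and 6 nt before the RefSeq end. By size the change ranked 1290 among the 1881, whose median was 0.214, so it was among the smaller ones despite its adjusted p. The splicing cluster and the polyadenylation sites are at different places in the gene, and no cryptic polyadenylation site was listed for it.

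SYT5, a synaptotagmin found on dense-core and synaptic vesicles, changed near the start of the gene. Its cluster of 4 introns on chromosome 19, from 55179065 to 55180117 on the minus strand, had an adjusted p of 0.0292 in the authors' deposited table. The annotated junction from the donor at 55180117 to the acceptor at 55179086 changed by -8.3 points, and a junction from an unannotated donor at 55179964 to the same acceptor by 8.6 points, in the authors' deposited table. The unannotated donor lies 153 nt farther downstream. Transcripts that use it keep a longer first exon if they begin at the same start site, which junctions do not show. In RNA-seq, SYT5 was called distal in polyadenylation, with a change of 0.934 (adjusted p = 1.23e-20) in the authors' deposited table, where 95% of the 841 genes listed were distal. That change ranked 298 among 799 distal genes, whose median was 0.765. RNA-seq values have another scale than those of 3' end-seq, in which SYT5 was not listed.

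The first RefSeq start site of SYT5 lies upstream of this cluster and the second lies inside it. The windows of both are shown because the second window lies wholly inside the intron that changed. The first start site, at 55180289, lies 172 nt before the annotated donor and 325 nt before the unannotated one. The second, at 55179348, lies 262 nt before the acceptor, past both donors. Each window runs from 250 nt before to 50 nt after a start site (RefSeq, GRCh38.p14), is written 5′ to 3′ on the minus strand, and has the bases from the start site onward in capitals.
SYT5 first start, chr19:55180240-55180539, minus strand: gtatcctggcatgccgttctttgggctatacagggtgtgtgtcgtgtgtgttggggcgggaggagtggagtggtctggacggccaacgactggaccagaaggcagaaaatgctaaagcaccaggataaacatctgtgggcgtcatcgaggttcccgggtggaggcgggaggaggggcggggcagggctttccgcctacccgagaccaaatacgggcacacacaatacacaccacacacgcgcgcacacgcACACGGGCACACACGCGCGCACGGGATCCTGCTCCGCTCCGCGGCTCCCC
SYT5 second start, chr19:55179299-55179598, minus strand: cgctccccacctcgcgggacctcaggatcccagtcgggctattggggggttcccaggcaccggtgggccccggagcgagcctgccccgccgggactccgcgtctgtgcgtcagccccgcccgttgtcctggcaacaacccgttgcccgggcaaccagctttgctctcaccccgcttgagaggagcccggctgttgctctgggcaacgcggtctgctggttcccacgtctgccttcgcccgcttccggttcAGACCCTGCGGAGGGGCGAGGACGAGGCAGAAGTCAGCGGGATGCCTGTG
The windows were searched for TGTGTG, a short form of the UG repeat that TDP-43 prefers, with overlapping matches counted. The first window held 2 matches on the gene strand, both before the start site, and 4 of the reverse complement CACACA. The second window, the part that lies in the intron, held 0 matches on either strand. Of all 35116 windows, 9.36% held the motif on the gene strand and 17.2% on either strand, so a match is common. Windows were found for 28 of the 33 genes.

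SYT1, the main fast calcium sensor of vesicle release, had a cluster of 34 introns (adjusted p = 0.00646) with small changes, from -0.8 to 1.6 points, in the authors' deposited table. Its annotated introns gained 3.1 points in sum, and the unannotated junctions in it changed by less than 1 point each. SYT4, a synaptotagmin that does not bind calcium in the usual way, and SYT11 were not listed.

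Among the SNAREs, SNAP25 exchanged exons. SNAP25 is the plasma-membrane SNARE that forms the core complex with syntaxin and synaptobrevin, and its gene carries a duplicated, mutually exclusive exon that gives the 5a and 5b isoforms. The cluster of 6 introns on the plus strand of chromosome 20, from 10284772 to 10296925, had an adjusted p of 0.00179 in the authors' deposited table. The junction into the upstream copy, at 10292882, changed by -14.2 points and the junction out of it by -5.5 points in the authors' deposited table. The junction into the downstream copy, at 10293161, changed by 13.0 points and the junction out of it by 6.3 points in the authors' deposited table. Each copy has ends 117 nt apart and the copies start 279 nt from each other. A junction that skips both changed by 0.4 points in the authors' deposited table, so within the cluster the shift was between the copies, all 4 junctions being annotated. The annotated introns as a whole changed by -0.4 points.

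STX1A, the syntaxin partner of SNAP25, had a cluster of 5 introns (adjusted p = 0.0078) in the authors' deposited table. Its changes were small, from -2.5 points at the annotated first junction to 1.5 points at the next one in the authors' deposited table. CPLX2, a complexin that clamps and promotes SNARE assembly, had a cluster of 7 introns (adjusted p = 0.0417) in the authors' deposited table. The cluster, from 175796784 to 175878652, begins near the start of the gene and spans most of it, the gene running from 175796533 to 175884021. There the annotated junction from 175809068 to 175878652 on chromosome 5 changed by -3.4 points and one from 175871705 to the same acceptor by 2.3 points in the authors' deposited table. VAMP1 and VAMP2 (vesicle SNAREs), CPLX1, STXBP5 (tomosyn, an inhibitor of SNARE assembly) and NSF (the ATPase that takes SNARE complexes apart) were not listed.

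Of the synapsins, which tether vesicles to actin and to each other, and the Rab3 proteins, small GTPases of the vesicle surface, 1 of 6 was listed. RAB3C had a cluster of 3 introns on the plus strand of chromosome 5 (adjusted p = 0.0146) in the authors' deposited table. They share the acceptor at 58617643 and differ in the donor. The RefSeq gene begins at 58582152, upstream of all the donors. Junctions do not show where the transcripts that use each donor begin, so different first exons cannot be told from different ends of a single first exon. The junction from an unannotated donor at 58582414 changed by -9.5 points and that from the annotated donor at 58583232, 818 nt downstream, by 8.9 points in the authors' deposited table. Here the annotated form gained, the reverse of SYT5. The RefSeq start site with a window, at 58583075, lies 661 nt past the donor that lost use and 157 nt before the one that gained it. Its window is shown because it falls between the alternative donors, with the bases from the start site onward in capitals (RefSeq, GRCh38.p14, plus strand).
RAB3C start, chr5:58582825-58583124, plus strand: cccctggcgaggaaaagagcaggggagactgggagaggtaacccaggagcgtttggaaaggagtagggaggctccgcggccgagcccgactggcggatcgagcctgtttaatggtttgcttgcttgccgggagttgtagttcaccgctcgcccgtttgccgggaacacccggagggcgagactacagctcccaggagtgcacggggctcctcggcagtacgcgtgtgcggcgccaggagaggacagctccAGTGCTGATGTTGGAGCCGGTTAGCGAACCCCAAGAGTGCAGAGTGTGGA
It held 0 matches to TGTGTG or its reverse complement. SYN1, SYN2, SYN3, RAB3A and RAB3B were not listed.

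The active zone scaffolds held 10 of the 24 clusters. RIMS1, which tethers vesicles to calcium channels, had 3 of them. The one at the gene's start, on the plus strand of chromosome 6 from 71887187 to 72096952, had an adjusted p of 0.00483 in the authors' deposited table. A junction that joins 2 annotated ends not joined in the annotation, from 71887187 to 72096949, gained 18.1 points in the authors' deposited table. It skips an annotated exon with ends 80 nt apart, from 71968983 to 71969063, whose upstream junction changed by -5.4 points and downstream junction by -11.2 points in the authors' deposited table. Farther along, a cluster of 9 introns (adjusted p = 0.00722) exchanged annotated junctions. The junction from 72266049 to 72291934 changed by 7.3 points and that from 72290861 to 72291934 by -4.5 points in the authors' deposited table. The remaining RIMS1 cluster (adjusted p = 0.00275) had no change over 1.3 points in the authors' deposited table.

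ERC2, the ELKS-family scaffold also called CAST, had 4 clusters, the most of the 33 genes. Near its start, on the minus strand of chromosome 3 from 56296435 to 56434351, the annotated junction changed by -15.1 points (adjusted p = 0.00042) in the authors' deposited table. Junctions on both sides of an unannotated exon with ends only 23 nt apart, from 56297082 to 56297105, gained 7.8 points upstream of it and 7.3 points downstream of it in the authors' deposited table. Changes were mixed toward the 3' end of the gene, in a cluster of 10 introns (adjusted p = 1.89e-05). There a junction from 55683794 to an unannotated acceptor at 55606966 changed by -11.1 points, while one from 55699378 to the same acceptor gained 3.7 points, in the authors' deposited table. The other 8 introns went both ways, from -3.4 points at an unannotated donor to 3.6 points at another unannotated acceptor in the authors' deposited table, and its 2 annotated introns changed by 2.5 points and by -1.8 points. In the third cluster (adjusted p = 0.00322) the annotated junction changed by 4.6 points, and in the fourth (adjusted p = 0.0419) no junction by more than 0.4 points, in the authors' deposited table. ERC2 thus had 1 cluster in which an unannotated exon gained and 2 in which unannotated junctions lost share in sum.

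RIMS2, the paralogue of RIMS1, had 2 clusters with small changes. The larger, of 26 introns (adjusted p = 0.000729), ranged from -2.5 to 3.1 points, in the authors' deposited table, and its 1 annotated intron stood at 0.0. In the other (adjusted p = 0.00727), junctions into 1 annotated acceptor from donors 328 nt apart changed by -3.6 points and by 3.4 points in the authors' deposited table. PCLO, which encodes the giant scaffold piccolo, had a cluster of 5 introns on chromosome 7 (adjusted p = 0.0466) in the authors' deposited table. A junction to an unannotated acceptor at 82821186 changed by -9.4 points and one to another unannotated acceptor at 82821291, 105 nt away, by 4.7 points in the authors' deposited table. The annotated junction changed by 3.2 points in the authors' deposited table. BSN, which encodes the related scaffold bassoon, and ERC1 were not listed.

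The 3 genes of vesicle retrieval in the set each had a changed cluster, as did 11 of the 28 retrieval genes of a wider presynaptic list and 11.8% of all gene names. DNM1, the neuronal dynamin that cuts endocytic vesicles from the membrane, had 3. In 2 of them an annotated exon was skipped more. On the plus strand of chromosome 9, the junction from 128219252 to 128220181 over an exon with ends 98 nt apart gained 6.6 points (adjusted p = 0.00337) in the authors' deposited table. Its upstream junction changed by -2.7 points and its downstream junction by -3.9 points in the authors' deposited table. The junction from 128242345 to 128247375, over an exon with ends 109 nt apart, gained 3.4 points (adjusted p = 0.000614) in the authors' deposited table. The last cluster, which begins 91.7% of the way along the gene, had the largest DNM1 change (adjusted p = 0.000148). A junction to an unannotated acceptor at 128253047 gained 10.7 points, and one to the annotated acceptor 54 nt downstream changed by -5.4 points, in the authors' deposited table.

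SNAP91, which encodes the clathrin assembly protein AP180, had the largest single change of the 24 clusters (adjusted p = 0.0247). On the minus strand of chromosome 6, a junction from an unannotated donor at 83614857 changed by -22.2 points in the authors' deposited table. The 4 annotated junctions of the cluster gained between 2.5 and 4.8 points each in the authors' deposited table, 16.1 in sum. A junction to an unannotated acceptor at 83614862, only 5 nt from that donor, gained 5.6 points in the authors' deposited table. AMPH, amphiphysin, which links dynamin to clathrin coats, was the only gene whose cluster held annotated introns alone (adjusted p = 0.00728). The junction out of an exon with the acceptor end at 38417950 on chromosome 7 changed by 9.0 points, the one into it by -1.6 points and the one over it by -7.4 points, in the authors' deposited table.

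**Figure D2:**
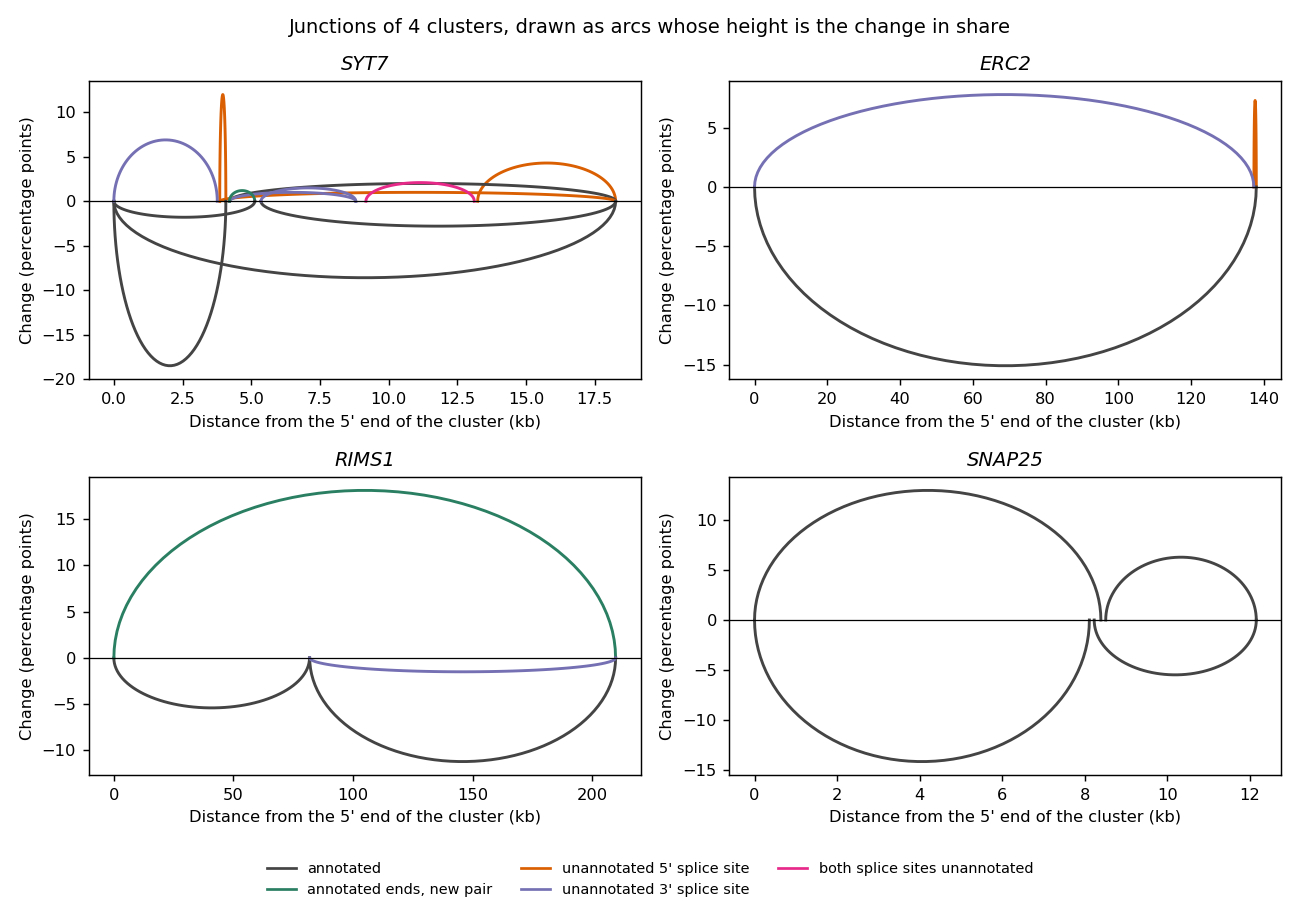
Each arc is a junction of 1 cluster in SYT7, ERC2, RIMS1 or SNAP25, placed by its distance in kb from the 5' end of the cluster along the x axis, with its height on the y axis equal to its change in percentage points (below 0 for a loss; changes under 1 point are left out) and coloured by annotation. In SYT7 and ERC2 the annotated arcs lose 18.5 and 15.1 points to arcs with unannotated ends, in RIMS1 a skipping arc gains 18.1, and in SNAP25 annotated arcs exchange -14.2 for 13.0.

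Of the 5 vesicle membrane genes, SLC17A6 was listed for splicing and SYP for polyadenylation. SYP encodes synaptophysin, an abundant membrane protein of the vesicle, and was the only one of the 33 in all 3 polyadenylation tables. In 3' end-seq it was called shorter with a change of -0.157 (adjusted p = 5.97e-75) in the authors' deposited table, as were 15.3% of the genes listed. Use moved from the site at 49187815 on the X chromosome (minus strand), which is the RefSeq end itself, to a site at 49191252, 3437 nt upstream. In RNA-seq it was called proximal with a change of -0.182 (adjusted p = 0.00729) in the authors' deposited table, as were 4.99% of the 841 genes. Both changes were small for their direction, at rank 236 of 339 shorter genes and rank 39 of 42 proximal genes. The site that gained use is also in the table of cryptic sites, which places it in the 3'UTR and does not mark it as premature. Its usage was 3.50% in control and 18.2% in the knockdown, with 1 value per group, in the authors' deposited table. That is 5.20 times the control usage and a gain of 14.7 percentage points. The median knockdown usage of the 144 cryptic sites in 3'UTRs was 19.0%, close to that of SYP. Of 7 genes called both shorter and proximal, SYP and 2 others had a cryptic site. The 3' end-seq and cryptic site tables come from the same libraries, so they are not separate measurements.

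**Figure D3:**
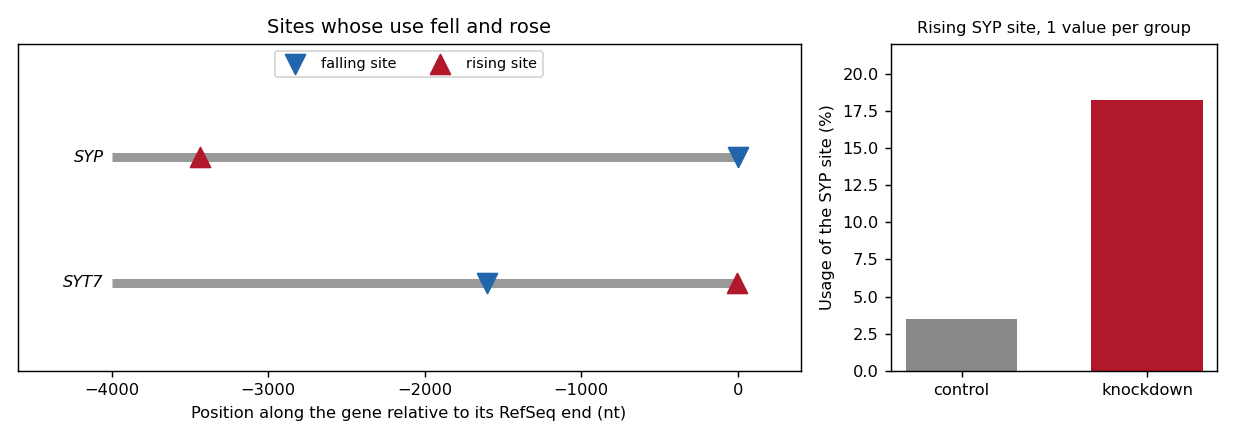
The left panel places the falling and the rising site of SYP and SYT7 along the gene, in nt from the RefSeq end (negative is upstream), and the right panel shows the usage of the rising SYP site in percent, 1 value per group. The rising site is 3437 nt upstream of the falling one in SYP and 1593 nt downstream in SYT7, and SYP usage goes from 3.50% to 18.2%.

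SLC17A6, the vesicular glutamate transporter VGLUT2 of NGN2-driven neurons, had 2 clusters with changes of at most 2.6 points. In the one at its start (adjusted p = 0.000774), 2 unannotated donors gained 1.4 and 2.0 points and the annotated junctions changed by -1.0 points and by -2.6 points in the authors' deposited table. In the one near its end (adjusted p = 0.000757), an unannotated acceptor 85 nt past the annotated one changed by -2.4 points and the annotated junction by 2.4 points in the authors' deposited table. SLC17A7 (VGLUT1) and the vesicle glycoprotein genes SV2A and SV2B were not listed.

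Across the 24 clusters the changes went both ways. Of 23 clusters with annotated and other introns, the annotated share was lower in 13, higher in 9 and equal in 1, with a median of -0.4 points. It was lower in 61.4% of 2649 such clusters in the whole table, where the median was -1.3 points. The median of the largest change per cluster was 6.95 points, against 6.4 in all 2994 clusters. A change of 10 points or more occurred in 7 of the 24 clusters (29.2%), in SYT7, SNAP25, RIMS1, ERC2 (2 clusters), DNM1 and SNAP91, against 33% of all clusters. The authors marked 23 of the 24 as cryptic, a mark that 88.8% of all clusters carry. These shares lie near those of the whole table and set the 24 clusters apart in neither size nor direction.

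The introns were also counted by annotation. Introns with both ends unannotated made up 27 of the 183 introns (14.8%) and 4.60% of all 15980. Most of the 27 lie in the clusters of RIMS2 and SYT1, and introns of a cluster are not independent. Annotated introns made up 33.3% of the 183 and 44.8% of all. New pairs of annotated ends numbered 16, of which 12 gained, against 57.0% gaining in the whole table.

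Exons in these clusters were compared by the junctions on each side of them and over them, for exons whose ends lie up to 500 nt apart. An exon can enter more than once where several junctions reach it. Annotated exons entered only where the junction over them joins annotated ends not joined in the annotation, so the AMPH exon did not enter. Unannotated exons entered only where the junction over them is annotated. Of 14 such arrangements at annotated exons, 5 showed less inclusion, with both flanking junctions down and the skipping junction up, and 0 showed more. In the whole table those shares were 26.8% and 12.9% of 1420. The 5 were in DNM1, RIMS1, SLC17A6 and SNAP25. In SNAP25 that exon is the upstream copy of the exchanged pair. Its downstream copy, with flanking junctions up by 13.0 and 6.3 points, was in neither count because the junction over it rose by 0.4 points. Of 29 arrangements at unannotated exons, 9 showed more inclusion and 7 less, against 33.7% and 18.8% of 1376 in the whole table. More inclusion was seen in SYT7, ERC2, STX1A, SYT1 and CPLX2 and less in ERC2, PCLO and SYT1. Most arrangements with more inclusion came from the SYT7 cluster. They include a span with ends 443 nt apart, inside which the junction from 61547308 to 61547530 gained 12.0 points. Most with less inclusion came from the SYT1 cluster, whose changes ran from -0.8 to 1.6 points. The gaining exons of STX1A and SYT1 had flanking changes of at most 0.3 points.

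**Figure D4:**
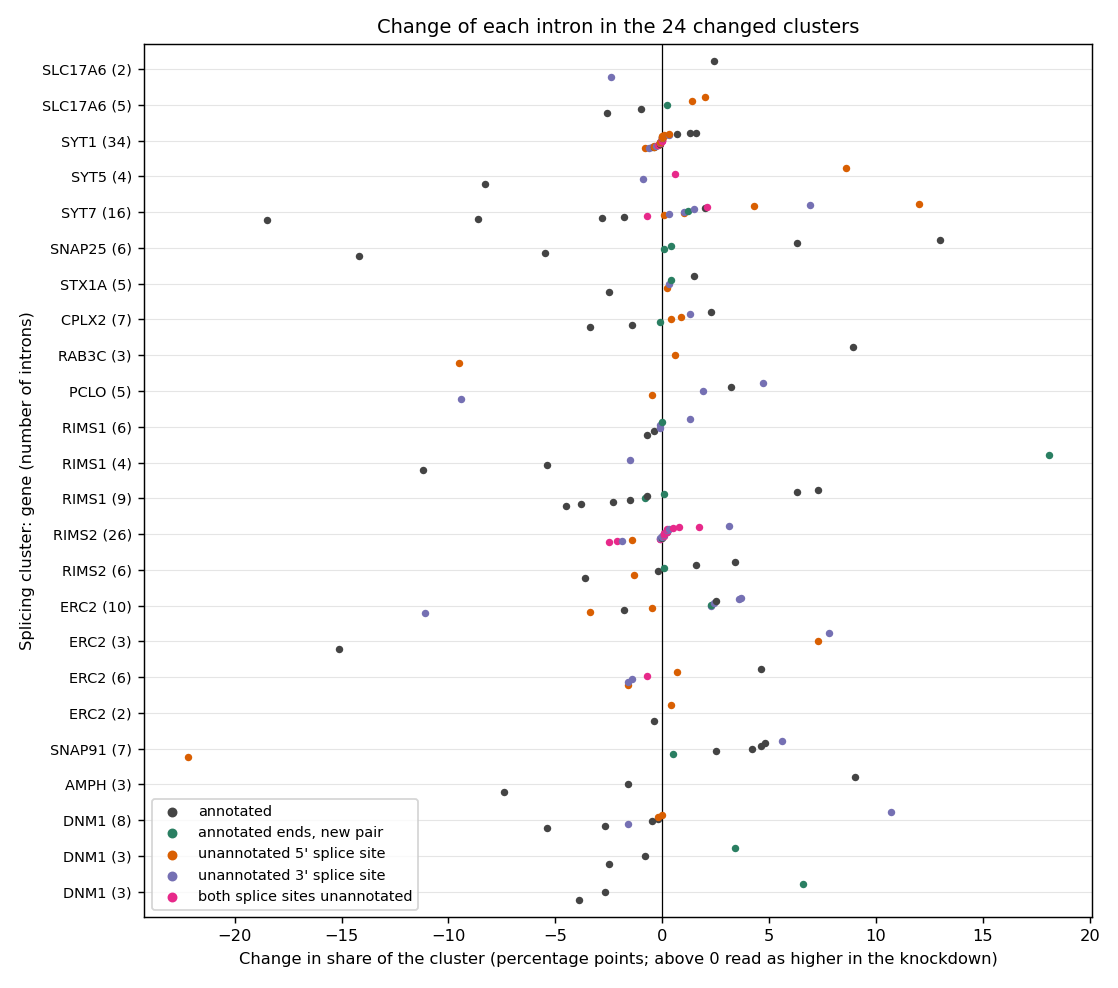
Each point is 1 of 183 introns, placed by its change in percentage points on the x axis and by its cluster on the y axis (gene, with the number of introns), and coloured by annotation. The extremes are -22.2 in SNAP91 and 18.1 in RIMS1, while all 34 introns of SYT1 lie between -0.8 and 1.6.

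**Figure D5:**
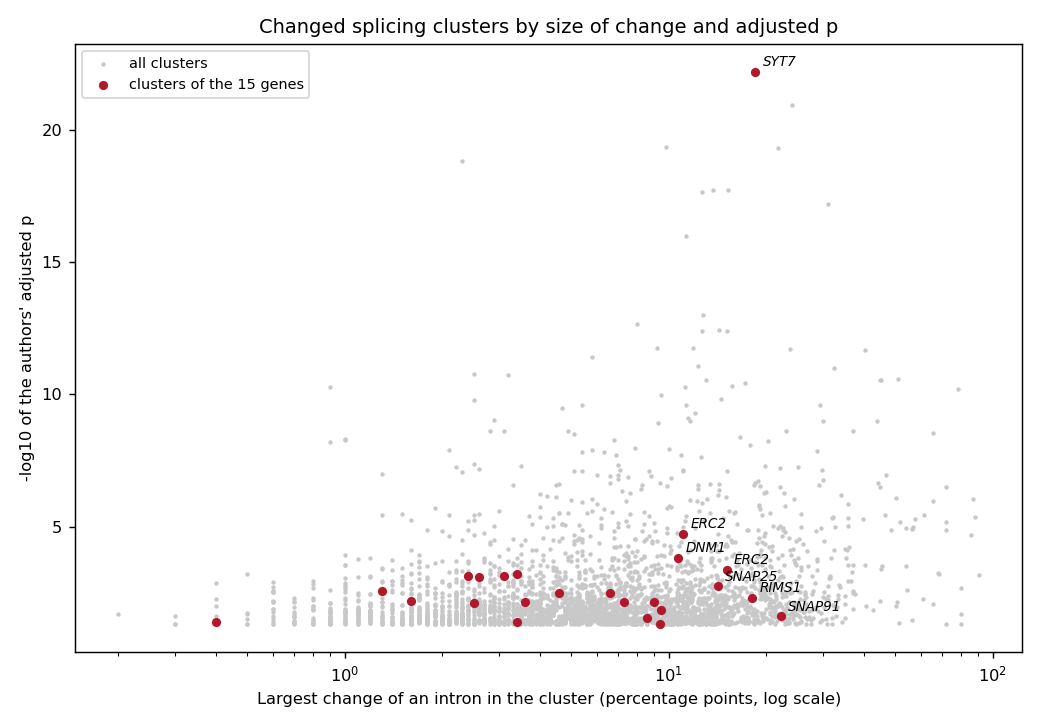
Grey points are all 2994 changed clusters and red points the 24 of the 15 genes, by the largest intron change in percentage points (log x axis) and -log10 of the authors' adjusted p (y axis). SYT7 stands at the top with an adjusted p of 6.41e-23, and clusters of 10 points or more are labelled.

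A wider list of 110 presynaptic genes, made without the 33 but also with earlier results of these data known, gave the setting. Its differences from all gene names may likewise come from the choice. Of these, 41 (37.3%) were listed in at least 1 table, against 22.3% of all gene names, and 33 (30.0%) had a changed cluster, against 11.8%, with 47 clusters in all. By 3' end-seq 14 were listed (12.7%, against 9.47%), 11 longer and 3 shorter. By RNA-seq 5 were listed (4.55%, near the 4.19% of all gene names), all of them distal, and 0 had a cryptic site in the authors' table, against 1.96%. The largest splicing change was in UNC13B, a vesicle priming factor. There the annotated junction changed by -56.2 points and the junctions of an unannotated exon with ends 22 nt apart by 18.3 and 37.8 points (adjusted p = 1.22e-05) in the authors' deposited table. UNC13A, its paralogue, changed by 21.8 points at an unannotated acceptor (adjusted p = 0.00105) in the authors' deposited table. CADPS, another priming factor of dense-core vesicles, had 5 clusters, 1 of them with an unannotated exon with ends 14 nt apart whose junctions gained 10.1 and 15.1 points in the authors' deposited table. In PPFIA4, a liprin of the active zone, a junction from 203056155 to an unannotated acceptor at 203056452 gained 23.6 points (adjusted p = 0.0436) in the authors' deposited table. Another junction to that acceptor, from an unannotated donor at 203056178, changed by -9.5 points in the authors' deposited table. The annotated junction changed by -14.2 points in the authors' deposited table.

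In 3' end-seq the largest polyadenylation change of the wider list was that of SNAP29, a SNARE of several membrane fusion steps. It was longer by 0.542 in 3' end-seq and distal by 0.730 in RNA-seq in the authors' deposited table. RAB27A, a GTPase of secretory vesicles, was longer by 0.479 and SCAMP2, a carrier membrane protein, by 0.436 in the authors' deposited table. In RNA-seq the largest change was that of AP2M1, a subunit of the clathrin adaptor of endocytosis, which was distal by 3.04. There, DOC2A, a calcium sensor of spontaneous release, was distal by 0.383, APBA2 by 0.228 and CASK, a scaffold kinase, by 0.160 in the authors' deposited table. SCAMP1 was longer by 0.170, NAPG (a SNAP that recruits NSF) by 0.249, CADPS by 0.151, TSPOAP1 (RIM-binding protein) by 0.131 and EPS15 (an endocytic adaptor) by 0.106 in the authors' deposited table. Each of these 5 also had a changed splicing cluster, that of TSPOAP1 under its older symbol BZRAP1, as did APBA2 and CASK. These 5 and CASK are named here because they were also listed for splicing, so that overlap comes from the naming rule. SNAP29, RAB27A and SCAMP2, also longer, had no changed cluster, and neither had AP2M1 or DOC2A. Other longer genes without a changed cluster are not named. The genes called shorter were SYT9 at -0.403, ITSN1 at -0.327 and STX3 at -0.143 in the authors' deposited table, and all 3 had a changed cluster. How many of all genes called shorter had one was not counted, so this is given as a description, and a link between the calls was not tested.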

How the data were processed

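Members and gene lists were chosen with earlier results of these data known. Members were found by symbol, with older symbols matched through RefSeq synonyms (GRCh38.p14). Per the submitters' processing notes, the tools were STAR, Salmon, SAMtools, fastp and DESeq2 and the build hg38, with no versions or roles. The splicing calls carry the name LeafCutter in their deposited label. Beyond these tools, no caller is named for the polyadenylation changes or the cryptic sites. RNA-seq libraries were stranded total RNA and 3' end-seq libraries QuantSeq REV, per the labels' protocols, and priming at internal A-rich stretches was not tested. All values are the authors' own comparisons. The changes of usage index and of intron share are deposited scores, adjusted p-values are deposited p-values, and cryptic site usage is a deposited fraction, printed as a percent. The tables list changes with an adjusted p of up to 0.05 where one is given, and depth is unknown. The 6 per-sample columns of a gene table were not used, because they carry bare numbers that match no sample's labels. Setting the knockdown side by low TARDBP would infer a group from values, so expression was not compared. Only gene names were read from it, as a denominator, which is not the number of genes tested. No test was run. Counts stand beside the same counts over the whole table. Every listed member is named. Of the wider list, genes in at least 2 tables and the 4 of largest change per table (ties included) are named. The search for exons was tested on simulated clusters. Promoter windows are from RefSeq. Python 3.11.15, numpy 2.4.6, pandas 2.3.3 and matplotlib 3.10.9 were used.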

Additional observations from a re-analysis of the deposited data

How the results depend on the processing

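Matching by exact symbol alone changed none of the 6 counts of members. At an adjusted p of at most 0.01, 10 members with a changed cluster remained of 15, and CPLX2, PCLO, RAB3C, SNAP91 and SYT5 were lost. In the same setting 12 members stayed in at least 1 table, and those in both a polyadenylation and a splicing table fell from 2 to 1, SYT7. Requiring a usage change of at least 0.2 left 0 of 2 members from 3' end-seq, and one of at least 0.5 left 1 of 2 from RNA-seq, SYT5. Requiring a knockdown usage of at least 20% left 0 of 1 members with a cryptic site, and an intron change of at least 10 points left 6 of 15 members with a changed cluster. No replicate could be left out and no other normalization tried, because no value per library was used. No paired analysis was possible because the columns used carry no replicate numbers.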

Other observations

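In the genes of the wider list called shorter, ITSN1, SYT9 and STX3, the changed junctions near the site that gained use went different ways. In ITSN1, an endocytic scaffold, the site that gained use lies at 33838497 on chromosome 21, 61362 nt upstream of the site that lost it. The annotated junction that ends 1510 nt before the rising site gained 20.8 points and the annotated junction that passes over it changed by -21.8 points in the authors' deposited table. In SYT9, a calcium sensor, the rising site at 7323938 on chromosome 11 lies 145107 nt upstream of the falling one. A junction to an unannotated acceptor 1776 nt before it gained 5.7 points and the annotated junction over it changed by -10.9 points in the authors' deposited table. Another unannotated junction over the site, to 7326519, gained 5.3 points in the authors' deposited table. In STX3, a SNARE of the plasma membrane, the rising site at 59802702 on chromosome 11 lies 3174 nt upstream of the falling one. An unannotated junction that ends before it, at 59800855, changed by -4.8 points and one over it, to 59803218, by -3.6 points in the authors' deposited table. Farther upstream in that cluster, the annotated junction from 59793514 to 59795372 gained 10.9 points in the authors' deposited table. A junction from the same donor to an unannotated acceptor at 59795602 changed by -7.0 points in the authors' deposited table. Among the 33 genes, SYT7 and SYT5 had both a splicing and a polyadenylation call, 2 of the 15 with a changed cluster and 2 of the 3 with a polyadenylation change. With 15 of the 33 genes already listed for splicing and no such count made over all genes, this overlap is given as a description. In SYT7 the sites lie past the cluster, and for SYT5 no site positions are given in the RNA-seq table.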
